A study of Mus musculus with 2 samples.

Results

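Histone genes of the embryonic mouse kidney were described in 2 RNA-seq libraries. The set was chosen by name: protein-coding genes whose symbol starts with Hist1h, Hist2h, Hist3h or Hist4h in GENCODE release M21, and 10 histone genes named singly (H1f0, H1fx, H2afx, H2afz, H2afv, H2afy, H2afy2, H3f3a, H3f3b and Cenpa). This gave 77 genes, of which 74 were matched by Ensembl ID among the 43346 mouse genes with values. Hist1h2bh, Hist1h2bm and Hist2h2bb were not analysed here. The rule reads names only, not values. By name, 67 genes were replication-dependent (64 with values: 6 of H1, 18 of H2A, 15 of H2B, 12 of H3 and 13 of H4), 9 were replacement variants (2 of H1, 4 of H2A and 3 of H3), and H2afx was kept apart from both.

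Both libraries came from kidneys of healthy B6NCrl embryos at 16.5 days, with males and females pooled, and they are labelled as biological replicates 1 and 2 of 1 group. The pool of replicate 2 held the kidneys of 41 embryos. The embryo number of replicate 1 was not given in the sources used here. RNA longer than 200 nt was used, 10 ng per library, with spike-in RNAs added. With 1 group, no difference between conditions can be tested, and the smallest two-sided exact p that 2 libraries allow is 0.5, so every value below is given per library and as mean ± SD (n = 2). In whole tissue, fewer cells of a type and less RNA per cell cannot be told apart.

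Histones package DNA into nucleosomes: a pair each of H2A, H2B, H3 and H4 forms the core, and H1 binds the linker DNA between cores. Replication-dependent genes supply histones during S phase from clustered, mostly intronless genes, and their mRNAs typically end in a conserved stem-loop in place of a poly(A) tail. Replacement genes are scattered, often hold introns, give polyadenylated mRNAs and supply histones outside S phase as well.

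The stem-loop sets the classes apart in sequence. A 16-base motif (GG, any 2 bases, CTTTT, any base, AG, any 2 bases, CC) was searched on both strands in the 150 nt after the stop codon of the GENCODE M21 transcripts. Of the 52 replication-dependent genes whose model holds at least 16 nt after the stop, 43 carried it, as did H2afx, and 0 of 9 replacement genes did. Among 20965 protein-coding genes with such a window, 47 (0.224%) carried it, 45 of them histone genes of the set when any transcript of a gene counts, and 0 carried it on the other strand. The 15 replication-dependent models with under 16 nt after the stop could not be searched. The forms below show how it varies, in capitals, with its flanks in lower case.

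Hist1h2ap: aaaaaaGGCTCTTTTCAGAGCCatc

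Hist1h1e: cccaaaGGCTCTTTTCAGAGCCacccac

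Hist1h3c: aaaaaaGGCTCTTTTAAGAGCCacctaa

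Hist2h2ac: caaaaaGGCTCTTTTTAGAGCCaccaaa

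Hist1h4d: accaaaGGCCCTTTTCAGGGCCactacc

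Hist1h4i: cttaaaGGCCCTTTTTAGGGCCaccaca

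Hist1h4b: acaaaaGGTCCTTTTCAGGACCactcac

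H2afx: cacaaaGGCCCTTTTAAGGGCCaccacc

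The form of Hist1h2ap and Hist1h1e, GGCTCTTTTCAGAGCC, was the most frequent (25 genes) and occurred in H1, H2A, H2B and H3. In H4 it did not occur: 7 genes carried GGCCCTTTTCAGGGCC, 2 carried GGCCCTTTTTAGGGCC and 2 carried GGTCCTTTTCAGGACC. H2afx, an H2A gene whose product is phosphorylated at DNA breaks, was the 1 gene with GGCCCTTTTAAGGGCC.

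Detection, at 1 TPM or more in both libraries (TPM is a share of the library's transcripts, scaled to transcript length), covered 61 of the 74 genes, against 62.2% of protein-coding genes and 34.7% of all mouse genes. All 9 replacement genes and H2afx were detected, and 51 of 64 replication-dependent genes were. The median replication-dependent gene stood at 4.70 TPM in replicate 1 and 5.35 in replicate 2, close to the 5.43 and 5.46 of all protein-coding genes. The median replacement gene stood at 388 and 392 TPM. By mean TPM, 4 replication-dependent genes reached 100, 20 lay between 10 and 100, 29 between 1 and 10, and 11 below 1, whereas 8 of 9 replacement genes were above 100. The ranges overlapped: 39 of 64 replication-dependent genes were below H1fx, the lowest replacement gene, in both libraries, and 2 were above H2afy2, the next lowest, in both (Hist1h2ap and Hist1h4d).

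**Figure D1:**
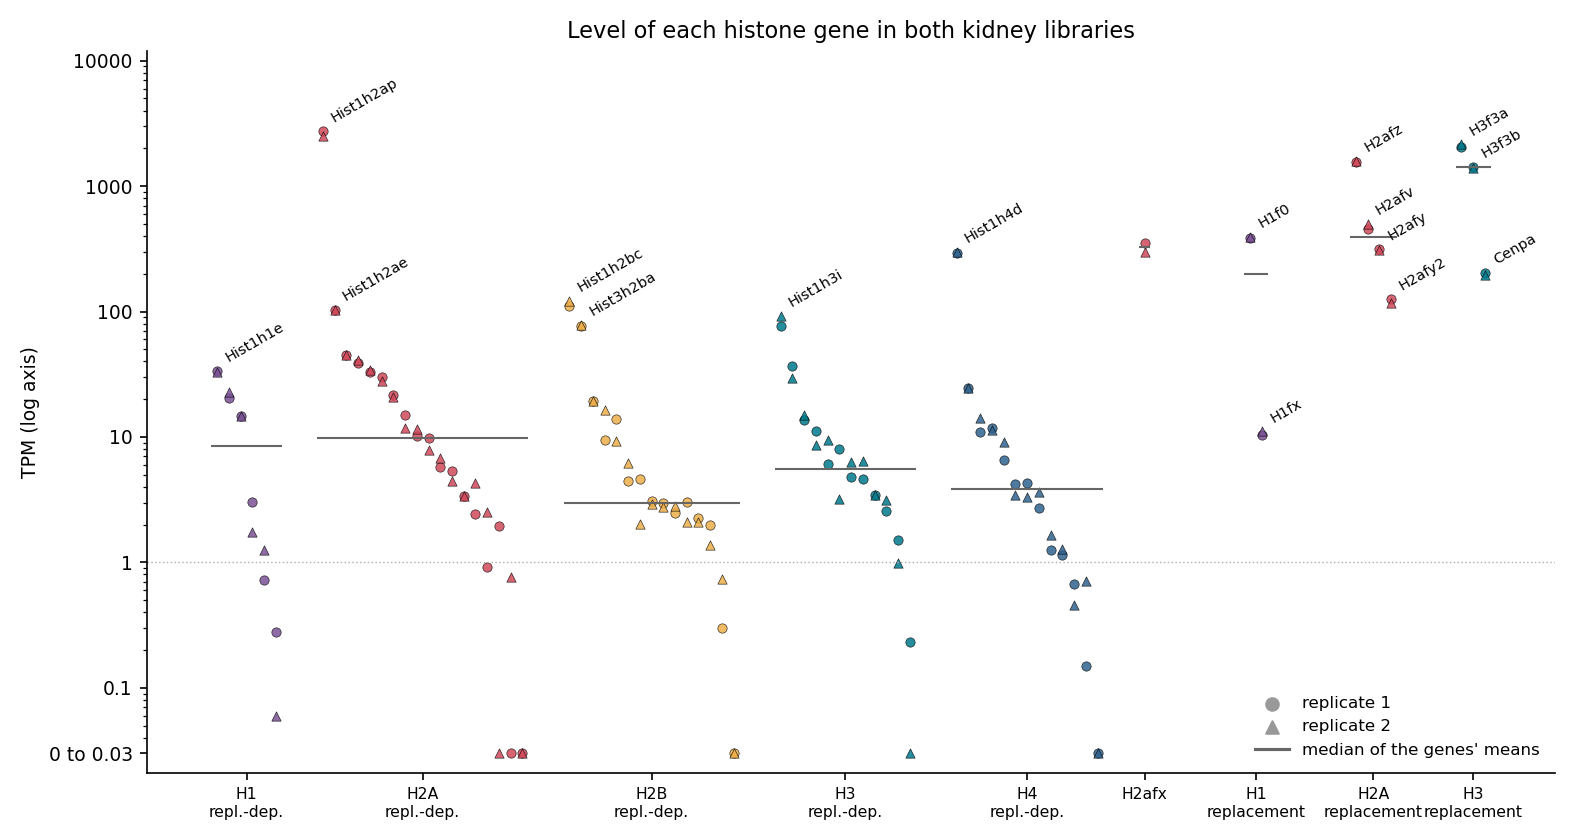
TPM of each histone gene on a log axis, genes ordered by mean within their class, with circles for replicate 1, triangles for replicate 2 and a line at the median of the class. Most replication-dependent genes sit between 1 and 100 TPM, with Hist1h2ap far above them, and 8 of 9 replacement genes sit above 100.

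Summed over genes, replacement variants gave more TPM than replication-dependent genes. The replication-dependent sum was 3954 TPM in replicate 1 and 3742 in replicate 2, and the replacement sum was 6516 and 6667, a ratio of 1.65 and 1.78. Replication-dependent genes made up 36.5% and 34.95% of all histone TPM (35.7 ± 1.12%). Replication-dependent models are short, so the measure of abundance matters: by expected counts, without division by length, their share was 16.3 ± 0.592%. One gene carries much of it. Without Hist1h2ap, a choice made after seeing its level, the TPM share was 14.8 ± 0.144%. As background, replication-dependent mRNAs typically end in a stem-loop in place of a poly(A) tail, but many gene models run further. Of the 43 genes with the stem-loop, 22 have M21 models that run over 150 nt past it. Those with values summed to 642.5 and 659.4 TPM. Hist1h2bc, with 742 nt after its stop, had no match in the 150 nt searched. Which 3′ ends were read was not tested. What priming from oligo(dT), treated below, contributes to the replication-dependent and replacement sums and to the replacement shares of each class was not tested.

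**Figure D2:**
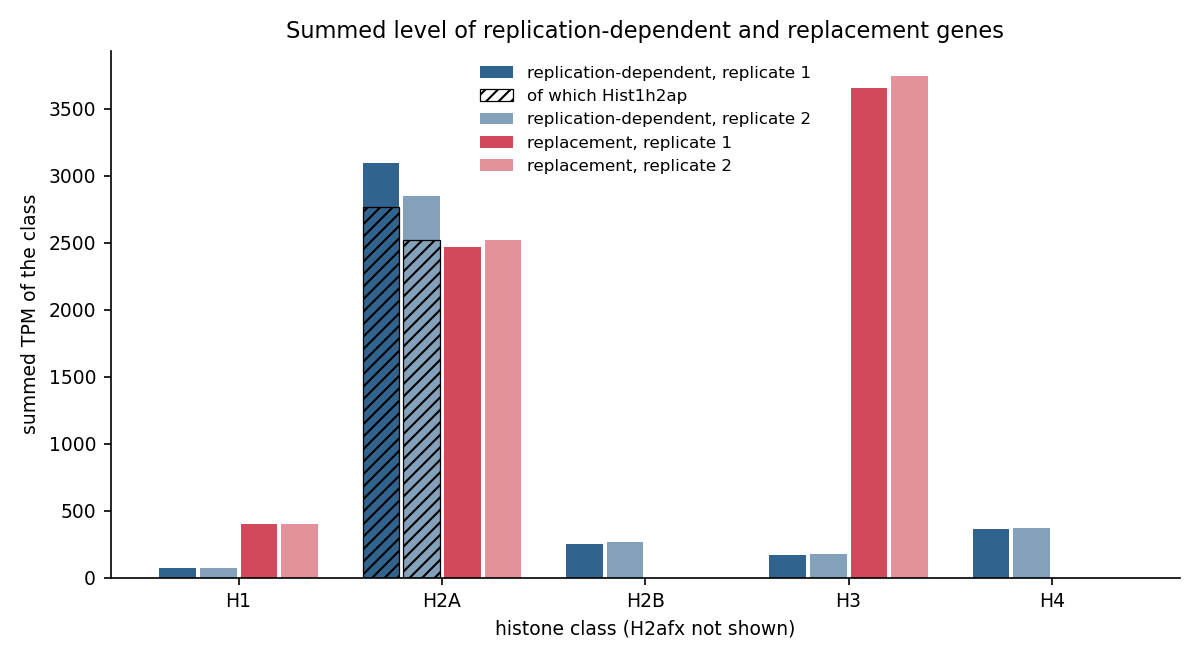
Summed TPM per histone class in each library, replication-dependent genes in blue and replacement genes in red, with the hatched area for Hist1h2ap. H3 and H1 TPM came mainly from replacement genes, H2A from both kinds, and no replacement gene of H2B or H4 is in the set.

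Linker histone TPM came mainly from a replacement gene. H1f0, the linker variant associated with quiescent and differentiating cells (chromosome 15, 79028450 to 79030504), stood at 388 TPM in replicate 1 and 392 in replicate 2. H1fx, another polyadenylated linker gene, stood at 10.3 and 11.1 TPM. The 6 Hist1h1 genes summed to 72.6 and 73.8 TPM, so the replacement share of H1 TPM was 84.6% in replicate 1 and 84.5% in replicate 2.

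Within the Hist1h1 genes, Hist1h1e led with 33.6 and 33.1 TPM. Hist1h1c followed with 20.4 and 23.0 TPM, and Hist1h1b with 14.6 in both libraries. The other 3 were far lower: Hist1h1d had 3.05 and 1.75 TPM, and Hist1h1a had 0.72 and 1.26. Hist1h1t, the linker histone of spermatocytes, had 0.28 and 0.06 TPM from 4 and 1 counts. All linker genes together gave 0.0455 and 0.0467 TPM per TPM of core histone genes (0.0461 ± 0.000859). By expected counts the ratio was 0.103.

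Of the classes with both kinds of gene, only H2A had a replication-dependent gene above every replacement variant by TPM. Hist1h2ap (chromosome 13, 21833026 to 21833507, minus strand, a single exon of 482 nt) had 2769 TPM in replicate 1 and 2521 in replicate 2, from 24347 and 24069 expected counts. By mean TPM, Hist1h2ap was the highest of all 74 genes and 16th among protein-coding genes. By expected counts, not divided by length, H2afz stood above it with 33588 and 37906. The next replication-dependent H2A gene, Hist1h2ae, had 103 and 104 TPM, and Hist1h2ap was 26.8 and 24.3 times higher. Hist1h2ap held 89.4% and 88.5% of replication-dependent H2A TPM.

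A near-identical gene limits how this level can be read. Hist1h2ap and Hist1h2ao share an identical stretch of 452 nt of their 482 and 480 nt, and 92.2% of the 100-base stretches of Hist1h2ap also occur in Hist1h2ao. The deposited estimates gave Hist1h2ao 1.94 TPM in replicate 1 and 0 in replicate 2, with upper bounds of 10.3 and 4.65 TPM. The deposited TPM bounds of Hist1h2ap, 2660 to 2733 and 2426 to 2493, are narrow, lie below the deposited TPM itself and surround the separately deposited posterior mean TPM. This offset is not particular to Hist1h2ap. The bounds of H3f3a and H2afz also lay below the deposited TPM in both libraries, whereas those of H2afv and H2afy held it. The part of read placement in the level of Hist1h2ap was not tested.

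A run of 12 A, shown in capitals, is encoded 26 nt after the stop codon of Hist1h2ap, directly before the stem-loop.

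Hist1h2ap: ccgaaaagAAAAAAAAAAAAggctcttttc

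Runs of 10 or more A occurred in 4 replication-dependent models. Hist1h2ao carries the same run at the same place. In Hist1h2ac and Hist1h2be the runs lie 856 and 850 nt after the stop, far beyond the stem-loops at 32 and 29 nt, so their levels are no comparison for it. The listed protocols name SMARTer Ultra Low, a chemistry that, as background, primes from oligo(dT). What such priming contributes to the level of mRNAs without a poly(A) tail, or to that of Hist1h2ap, was not tested.

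Below the leading pair, replication-dependent H2A genes graded down over a wide range. Hist1h2ag had 45.4 and 45.2 TPM. Hist2h2aa2, of the chromosome 3 cluster, had 38.9 and 41.3. Hist3h2a had 33.1 and 34.1. These 3 genes kept their order in both libraries. At the bottom, Hist2h2ab had 0 and 0.77 TPM, and Hist1h2aa, a testis gene, was at 0 in both, where 3 counts would be 0.449 and 0.414 TPM. Outside Hist1h2ap, the H2A genes summed to 327 TPM in each library.

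The replacement H2A genes summed to 2465 and 2520 TPM, 41.7% and 44.5% of all H2A TPM (43.1 ± 1.99%). The share was 79.3 ± 1.28% without Hist1h2ap, and 61.9 ± 2.09% by expected counts. H2afz, which encodes H2A.Z of promoters and enhancers (chromosome 3, 137864487 to 137866922), led with 1566 and 1597 TPM. Its near relative H2afv, the other H2A.Z gene, had 456 and 498. The macroH2A genes, whose products carry a large extra domain and mark silent chromatin, were lower: H2afy had 316 and 308 TPM, and H2afy2 had 127 and 117. The order H2afz, H2afv, H2afy, H2afy2 was the same in both libraries, with no overlap between neighbours. H2afx had 354 and 297 TPM (326 ± 40.7), which put it above H2afy in replicate 1 and below it in replicate 2.

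H2B has no replacement gene in the set, and its 15 genes with values summed to 254 and 268 TPM. Hist1h2bc led with 110 and 122 TPM, and Hist3h2ba (chromosome 11) followed with 76.6 and 78.4. They do not overlap and hold most of the class. Hist1h2bj had 19.5 and 19.3 TPM, Hist1h2bk 9.44 and 16.5, and Hist2h2be 13.8 and 9.28, so the last pair changed places between libraries. The lowest were Hist1h2bq (1.97 and 1.38 TPM), Hist1h2br (0.30 and 0.73) and the testis gene Hist1h2ba, at 0 in both libraries, where 3 counts would be 0.459 and 0.422 TPM.

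H3 was almost wholly a replacement class at the RNA level. H3f3a (chromosome 1, 180800832 to 180813943) had 2034 TPM in replicate 1 and 2149 in replicate 2, and H3f3b had 1418 and 1401. Both encode the same protein, H3.3, which is placed at active genes and in heterochromatin without replication. By TPM, H3f3a was 1.43 and 1.53 times H3f3b, but H3f3b had more expected counts (56027 and 62488 against 40047 and 44302), and its main transcript H3f3b-201 is 1993 nt long against 888 nt for H3f3a-201. Cenpa, the H3 variant of centromeres, had 201 and 194 TPM. Replacement genes made up 95.6% and 95.4% of H3 TPM.

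The 12 replication-dependent H3 genes summed to 169 and 179 TPM. Hist1h3i had 76.6 and 92.9 TPM, Hist2h3b had 36.9 and 29.7, and Hist1h3d had 13.6 and 14.99. They kept this order in both libraries. Hist1h3c (11.1 and 8.68 TPM) and Hist1h3b (6.07 and 9.44) changed places. Of the lowest, Hist2h3c2 had 2.59 and 3.12 TPM, Hist1h3f 1.51 and 0.98, and Hist2h3c1 0.23 and 0.

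H4 has no replacement gene in the set, and Hist1h4d (chromosome 13, 23581598 to 23582735) carried the class. It had 294 TPM in replicate 1 and 300 in replicate 2, which is 81.1% and 80.4% of the 362 and 373 TPM of H4. The next gene, Hist1h4i, had 24.7 and 24.3 TPM, and Hist1h4d was 11.9 and 12.3 times higher. Part of this ratio is model length: the deposited models are 393 nt for Hist1h4d and 727 nt for Hist1h4i. Their expected counts were 1984 and 2198 against 355 and 381. In the M21 models, where Hist1h4d is 1138 nt long, it shared none of its 100-base stretches with another gene, against 92.2% for Hist1h2ap. Hist1h4c (10.9 and 14.1 TPM), Hist1h4n (11.8 and 11.3) and Hist2h4 (6.54 and 9.04) followed. Hist4h4 had 0.67 and 0.46 TPM, Hist1h4a 0.15 and 0.71, and Hist1h4m 0 in both libraries, although 88.1% of its 100-base stretches also occur in Hist1h4n. Its upper deposited bounds were 2.87 and 2.28 TPM.

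The 4 core classes were unequal in TPM. Of replication-dependent core TPM, H2A made up 79.8% and 77.6% (78.7 ± 1.5%), H4 9.33% and 10.2% (9.76 ± 0.596%), H2B 6.55% and 7.31% (6.93 ± 0.536%) and H3 4.36% and 4.88% (4.62 ± 0.368%). The order was the same in both libraries, with gaps larger than the spread between them. By expected counts, not divided by length, H2B (11.0%) stood above H4 (8.26%). Without Hist1h2ap, H4 led the TPM with 32.6 ± 0.0177%, then H2A with 28.9 ± 0.626%, H2B with 23.1 ± 0.366% and H3 with 15.4 ± 0.277%. What priming from oligo(dT) contributes to the core shares was not tested.

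The Hist1h genes lie in 1 cluster: all 54 span 2219 kb of chromosome 13 (21715763 to 23934851), 52 of them with values. High and low genes stand side by side. In the whole set, 12 pairs of genes start within 500 nt of each other on opposite strands (11 on chromosome 13 and 1, Hist2h2ac with Hist2h2be, on chromosome 3), and all 12 paired an H2A with an H2B gene. The H2A gene had the higher TPM in 7 pairs in replicate 1 and in 6 in replicate 2, the H2B gene in 4 and 5, and 1 pair, Hist1h2aa with Hist1h2ba, was at 0 in both genes. Hist1h2ae had 103 and 104 TPM beside Hist1h2bg with 4.46 and 6.22, whereas Hist1h2ac had 5.34 and 4.48 beside Hist1h2bc with 110 and 122. Hist1h2ap stood beside Hist1h2br, at 0.30 and 0.73 TPM, with 236 nt between their starts.

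**Figure D3:**
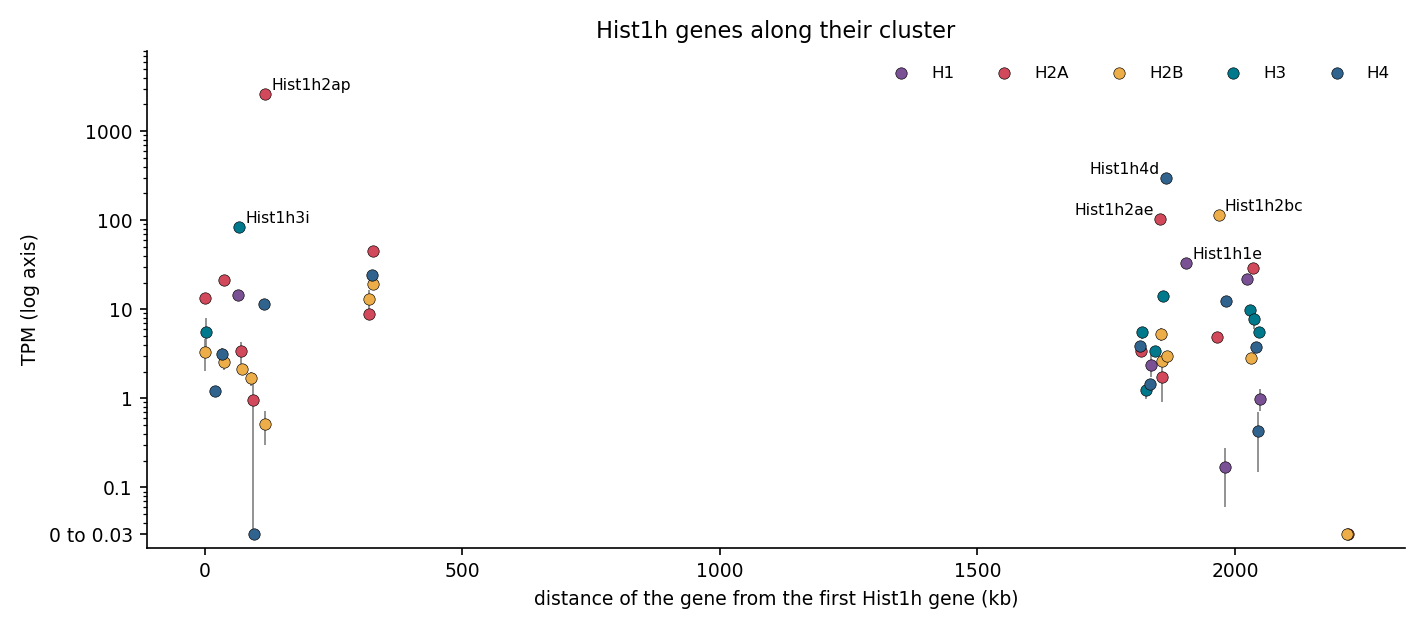
Mean TPM (log axis) of the Hist1h genes by distance from the first gene of the cluster in kb, coloured by class, with lines from the lower to the higher library. The genes above 100 TPM, Hist1h2ap, Hist1h4d, Hist1h2bc and Hist1h2ae, each have a direct neighbour below 10 TPM.

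Short promoter motifs were counted on both strands in both kinds of gene. RefSeq promoter windows (GRCm38.p6, 300 bases around the start) were matched for 62 replication-dependent and 8 replacement genes. CCAAT, the letters read by the factor NF-Y, occurred in 85.5% of the replication-dependent windows, in 62.5% of the replacement windows and in 37.4% of all 32851 windows. All replication-dependent windows of H1, H2A, H2B and H3 held it, and 3 of 12 of H4 did. TATAAA occurred in 56.5% of replication-dependent windows, in 0 of 8 replacement windows and in 13.6% of all. The octamer ATTTGCAT, read by POU factors, occurred in 7 of 18 H2A and 6 of 16 H2B windows and in none of H1, H3 or H4, against 1.74% of all windows. Each motif was searched on its own, so matches can share end letters, and a match is not a bound site. Windows of paired H2A and H2B genes can cover nearly the same DNA, so the same site can count in both classes. Those of Hist1h2ah (chr13:22035594-22035893) and Hist1h2bk (chr13:22035571-22035870) are an example. The windows of the leading H2A gene of each kind are shown with CCAAT, or ATTGG on the other strand, in capitals: Hist1h2ap at chr13:21833426-21833725 (minus strand) and H2afz at chr3:137864237-137864536 (plus strand).

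Hist1h2ap: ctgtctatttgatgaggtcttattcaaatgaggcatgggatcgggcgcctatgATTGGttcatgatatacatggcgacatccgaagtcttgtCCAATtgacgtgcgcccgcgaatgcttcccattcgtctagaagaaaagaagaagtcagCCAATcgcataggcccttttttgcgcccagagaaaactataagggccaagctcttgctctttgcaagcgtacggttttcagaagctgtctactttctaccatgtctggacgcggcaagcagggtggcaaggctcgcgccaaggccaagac

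H2afz: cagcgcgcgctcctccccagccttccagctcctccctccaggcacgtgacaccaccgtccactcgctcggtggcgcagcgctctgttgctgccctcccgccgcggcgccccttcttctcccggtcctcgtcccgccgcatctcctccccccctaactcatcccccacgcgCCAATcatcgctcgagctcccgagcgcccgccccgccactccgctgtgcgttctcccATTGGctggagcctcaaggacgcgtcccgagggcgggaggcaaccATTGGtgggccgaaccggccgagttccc

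Both windows hold CCAAT, and neither holds TATAAA or ATTTGCAT.

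Shared sequence and low counts limit how finely the replication-dependent genes can be read. Shared sequence was counted on GENCODE M21 models, some of which differ in length from those behind the deposited values. Over 50% of the 100-base stretches were shared with another annotated gene, on either strand, in 28 of 67 replication-dependent genes, 27 of them with values. The same held for 1 replacement gene, H2afz (58.8%, first with models of Tmcc1). The first partner was not always a named histone gene. For Hist2h2aa1, Hist2h2aa2 and Hist2h3b it was Gm20633, Gm20632 and Gm20628, at 100%. The deposited upper TPM bound was a median of 1.79 times the lower one in replicate 1 and 1.70 times in replicate 2 over the detected replication-dependent genes, and at most 1.28 times over the replacement genes and H2afx. It was over 10 times the lower one for 12 replication-dependent genes, of which 2 were detected. These were Hist1h2an, with 2.44 and 4.29 TPM, and Hist1h3h. Bound width was not separated from read counts. Hist1h1d, which shares 0.792%, had ratios of 1.86 and 2.19 from 45.2 and 28.2 counts. Hist1h2ap, which shares 92.2%, had a ratio of 1.027 in both libraries, from 24347 and 24069 counts.

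**Figure D4:**
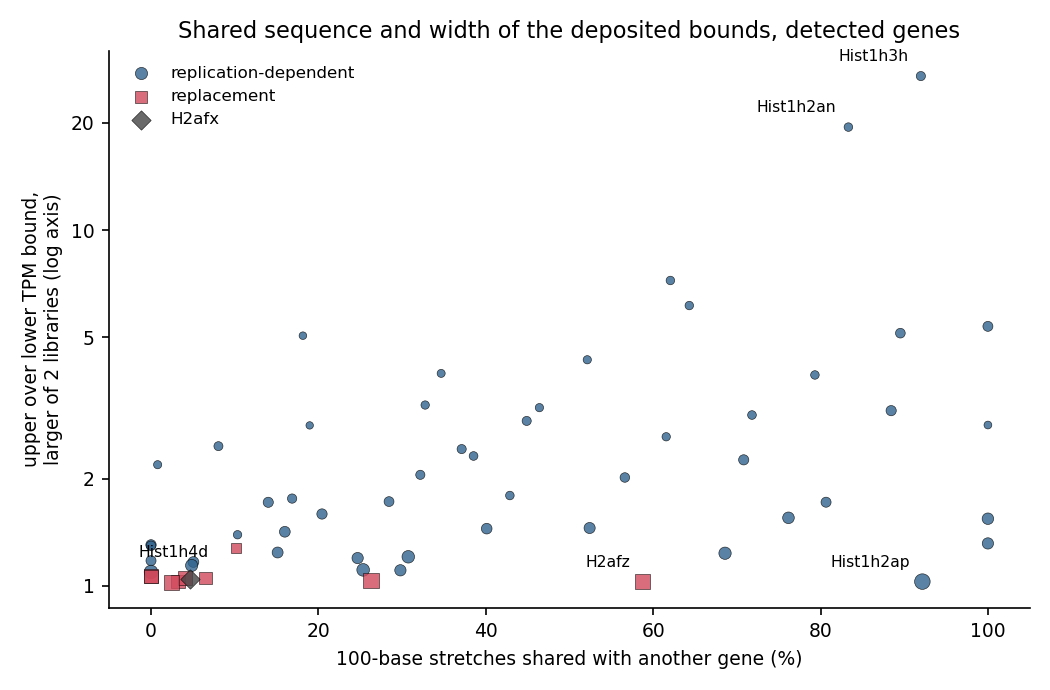
Ratio of upper to lower deposited TPM bound (log axis, larger of the 2 libraries) against the percent of 100-base stretches shared with another gene, for detected genes, with larger symbols for higher TPM. The ratio stays at or below 1.28 for replacement genes, and the 2 genes above 10, Hist1h2an and Hist1h3h, share most of their sequence.

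Few histone genes differed over 2-fold between the pools, at a share near that of all genes. Of the 74 genes, 50 averaged at least 1 CPM (counts scaled to library size), and 1 of them (Hist1h3h) differed over 2-fold between pools, against 2.35% of the 15363 genes past that filter, 1.77% lower in replicate 2 as Hist1h3h was and 0.579% higher. Hist1h3h had 8.05 TPM in replicate 1 and 3.18 in replicate 2, from 57.7 and 24.7 expected counts, a log2 ratio of -1.27. Its deposited bounds, 3.88 to 13.1 and 0.258 to 6.99 TPM, overlap, and 92.0% of its 100-base stretches are shared. The log2 ratio of the 9 replacement genes lay between -0.12 and 0.10, and that of the 40 replication-dependent genes past the filter between -1.27 and 0.78, the highest being Hist1h2bk. Scaled to the spike-ins, which made up 2.82% and 2.08% of counts, the median of all genes shifted by 0.43, the ratio of Hist1h3h was -0.87, and Hist1h3b (1.03) and Hist1h2bk (1.20) were the genes over 2-fold.

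Several replacement genes were read from more than 1 transcript. Cenpa had 7 transcripts above 1 TPM. The 1 with the most, Cenpa-202, is annotated for nonsense-mediated decay and had 92.7 and 97.0 TPM, and the coding Cenpa-205 had 68.9 and 67.6. Protein-coding transcripts made up 35.8% and 36.1% of Cenpa TPM. For H2afy, which had 6 transcripts above 1 TPM, the coding share was 63.7% and 64.7%. The noncoding H2afy-204 had 83.0 and 86.2 TPM.

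For the H3.3 genes, H3f3a-201 had 1449 and 1423 TPM and H3f3a-204 had 401 and 547, and protein-coding transcripts made up 99.0% and 99.2%. H3f3b was 84.7% and 90.7% coding, the difference lying in the noncoding H3f3b-204 with 199 and 115 TPM. H2afz-201 had 1351 and 1491 TPM and H2afz-207 had 205 and 93.7, so their division differed between libraries while the gene's total was 1566 and 1597. H2afv divided between H2afv-201 (65.0% and 65.7%) and H2afv-202. How reads that fit several transcripts were divided was not tested.

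**Figure D5:**
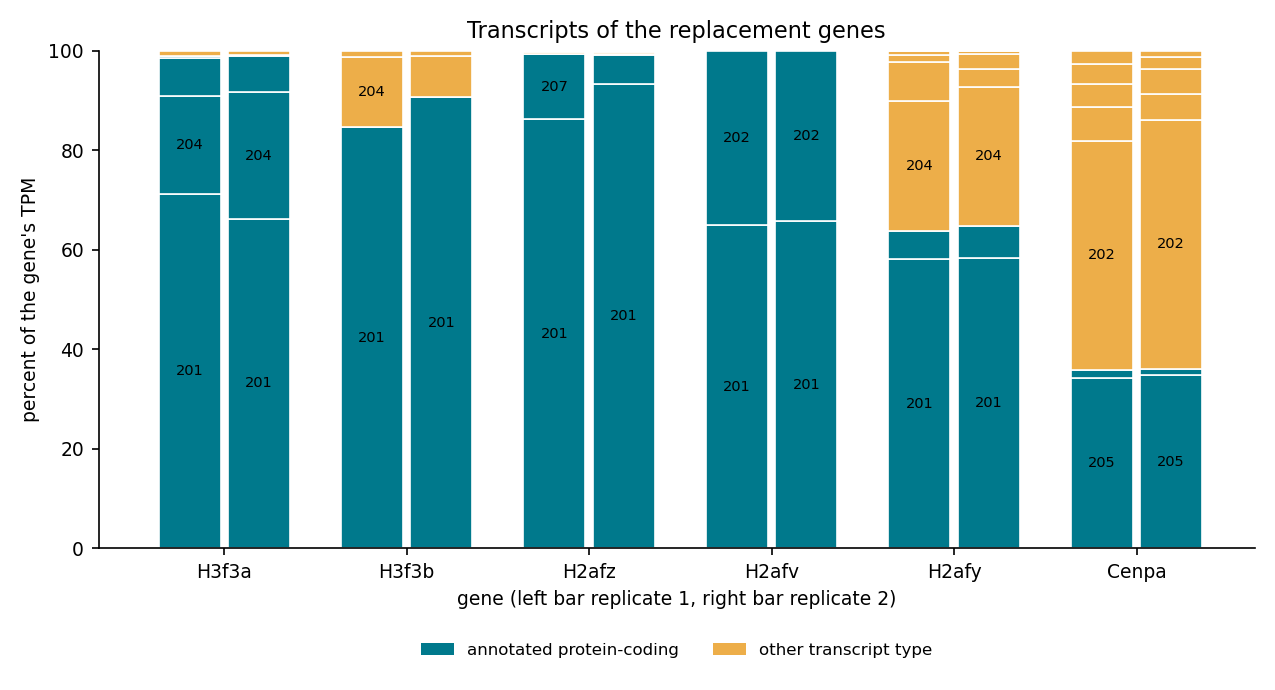
Percent of gene TPM by transcript for H3f3a, H3f3b, H2afz, H2afv, H2afy and Cenpa in replicate 1 (left bar) and replicate 2 (right bar). Annotated protein-coding transcripts are in teal and other types in yellow, with the transcript number where there is room. H1f0, H1fx and H2afy2 are not shown. Cenpa is mostly of other types (35.8% and 36.1% coding), and H3f3a, H2afz and H2afv are nearly all coding.

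Genes outside the set bear on 2 of its values. H3f3c, a processed pseudogene of H3.3 in GENCODE M21, had 451 and 342 TPM and H3f3a-ps2 had 56.8 and 10.4. Of the 100-base stretches of H3f3a, read from the 2841 nt model H3f3a-205, 26.3% occur in other genes. Gm17275 came first (19.9%) and H3f3c next. The shorter main transcript H3f3a-201 was not searched apart. Adding H3f3c, H3f3a-ps1 and H3f3a-ps2 moved the replacement share of H3 to 96.0 ± 0.197%. H2afj, a polyadenylated H2A gene, had 49.0 and 48.7 TPM.

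The machinery that makes, ends and places histones was detected throughout. Of 13 genes listed for 3′ end processing, 12 were matched, 12 of 12 were detected, and their median was 42.2 ± 0.424 TPM. Slbp, which binds the stem-loop, had 193 and 197 TPM. Srrt had 93.8 and 96.1, and Cpsf3, the nuclease of the cleavage complex, had 86.3 and 92.4. Ncbp1, of the cap-binding complex, had 74.4 and 76.1. The lowest were Lsm11 (3.49 and 3.22), of the U7 particle, and Zfp473 (2.16 and 1.78).

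Among 12 genes for transcription of the histone loci, 12 were detected with a median of 18.4 ± 0.212 TPM. The NF-Y subunit Nfyc had 109 and 104 TPM, Cdk2 79.6 and 78.2, and Ccne1 52.2 and 50.3. Nfyb had 38.6 and 40.5. Npat, the coactivator of histone genes in S phase, had 16.8 and 16.04. The lowest were E2f1 (9.53 and 16.5) and Gon4l (8.61 and 7.56). The 12 S phase genes were all detected, with a median of 136 ± 2.57 TPM. Mcm6 (209 and 219), Pcna (203 and 222), Tyms (207 and 204) and Mcm7 (189 and 187) were highest, and Cdc6 (31.6 and 30.3) and Pola1 (17.7 and 17.2) lowest.

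Chaperones carry histones to DNA. The 10 for H3 and H4 in replication were detected with a median of 77.4 ± 3.23 TPM: Rbbp4 (330 and 320), Tonsl (169 and 188), Nasp (139 and 121) and Mcm2 (125 and 125) were highest, and Chaf1a (33.3 and 31.6) and Mms22l (20.9 and 21.7) lowest. The 16 for replacement variants were detected with a median of 46.1 ± 0.983 TPM. Anp32e, which removes H2A.Z, had 205 and 173 TPM, Atrx 168 and 157, Vps72 151 and 154, and Hjurp, the chaperone of Cenpa, 153 and 141. Hira, which places H3.3 at genes, had 4.74 and 5.66, and Ino80 4.12 and 3.29. The 7 for H2A, H2B and linker histones had the highest median, 215 ± 6.57 TPM, with Npm1 at 827 and 837, Set at 374 and 361, Ssrp1 at 267 and 264 and Nap1l4 at 211 and 220. The lowest were Nucks1 (67.9 and 65.4) and Supt16 (50.7 and 44.6). Protein-coding genes detected by the same rule had a median of 20.7 TPM.

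Library totals were 35255968 and 38706236 expected counts, of which histone genes made up 0.668% and 0.656% of mouse counts, and 1.08% and 1.07% of TPM. Counts differed between the libraries beyond sampling noise (chi-square per gene 13.9). All 8 kidney markers were detected (median 55.9 ± 0.767 TPM), as were 4 of 5 erythroid markers, led by Hbb-bs at 5052 and 4882 TPM, 5 of 5 adrenal markers and 4 of 4 macrophage markers. Of the adrenal markers, Th (11.5 and 5.49 TPM) and Chga (11.2 and 4.50) were over 2-fold lower in replicate 2, whereas Cyp11a1 (20.6 and 38.5), Star (9.90 and 17.2) and Cyp21a1 (31.5 and 35.4) were higher there by less than 2-fold. Summed, adrenal markers had 84.6 and 101.1 TPM, erythroid markers 8783 and 8467, and macrophage markers 69.0 and 73.6. The part of these other cells in the histone levels was not tested. Of 6 germ cell markers, 0 were detected, with Tnp1 and Stra8 at 0 in both libraries, beside the germline histone genes Hist1h1t, Hist1h2aa and Hist1h2ba at or near 0.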

How the data were processed

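For each library the authors deposited values per gene and per transcript: expected counts (estimated, not whole), TPM, FPKM, posterior mean TPM, lower and upper TPM bounds (read as a signal that is never negative) and each transcript's percent of its gene. The deposited text notes give assembly mm10 and annotation M4. The aligner, quantifier and library strand were not given in the sources used here. Overlapping genes are therefore uncertain. Names came by Ensembl ID from GENCODE M21 (GRCm38). Of 111 transcripts of these genes found in both annotations, 85 had equal length. Sequences were read from GENCODE M21 transcripts and RefSeq promoters (Python 3.11.15, pandas 2.3.3).

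Sums and shares used TPM as deposited. A gene was detected at 1 TPM in both libraries. Ratios between pools used rounded expected counts, edgeR 4.0.16 TMM scaling, a prior count of 2 and a mean of at least 1 CPM, and were checked on simulated data. DESeq2 1.42.0 size factors were an alternative. Limits from counts cover counting error only. With 2 libraries there is no test across genes. The genes and lists were chosen with earlier results of these data known. Named genes were the 10 singly named, up to 5 highest and 3 lowest per replication-dependent class, germline genes, those over 2-fold between pools or with wide bounds, and 4 highest and 2 lowest per list.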

Additional observations from a re-analysis of the deposited data

How the results depend on the processing

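No paired analysis was possible because there is 1 group. Of 111 alternative values for 12 results, 74 moved by no more than the spread between libraries (or 1.5 times for counts) and 37 moved further. With 2 libraries, leaving out either of them cannot move a share or the linker ratio past that spread. Some alternatives also leave out or regroup genes that do not enter a given share. The 74 are therefore no measure of how stable the results are. Counts not divided by length gave a replication-dependent share of 16.3%, replacement shares of 61.9% (H2A), 98.5% (H3) and 93.0% (H1), core shares of 76.5% (H2A), 11.0% (H2B, above H4), 4.25% (H3) and 8.26% (H4), and 0.103 linker per core. Protein-coding transcripts gave 37.3%, a replacement H3 share of 95.1% and 0.0481 linker per core. H2afx counted as replication-dependent gave 38.8%, with core shares of 80.4% (H2A), 6.38% (H2B) and 8.98% (H4). Lower bounds gave replacement shares of 96.2% (H3) and 85.7% (H1) and a core H3 share of 4.04%, and upper bounds 94.8%, 83.3% and 5.21%. Posterior means gave a replacement H1 share of 84.5%, and leaving out germline genes 84.6%. The remaining alternatives for shares were chosen after seeing the data. Without Hist1h2ap, the replication-dependent share was 14.8%, the replacement H2A share 79.3%, core shares 28.9% (H2A), 23.1% (H2B), 15.4% (H3) and 32.6% (H4), and linker per core 0.0620. With H3.3 pseudogenes, the first share was 34.4% and the replacement H3 share 96.0%. Adding H2afj moved neither share beyond the spread. At 5 TPM, 39 genes were detected. Over 2-fold between pools were 2 of 50 genes with spike-in scaling, both higher in replicate 2 (3.07% of all genes), 8 of 74 without a filter (5.82%) and 0 of 27 at 5 CPM or more (0.894%). Depth limits low genes: 10 counts on 2 kb are about 0.218 and 0.201 TPM.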
